A study of Mus musculus with 12 samples.

Results

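The 36 genes described here encode the machinery that folds proteins in the endoplasmic reticulum (ER) and the machinery that removes what fails to fold, with the 3 sensors that report on folding. They were taken from a list of gene names and found on the array as every probe whose transcript accession belongs to a listed gene. All 36 had a probe, 43 probes in all, and the brightest probe stands for a gene. All 36 passed the filter on dim probes and are 36 of the 12295 named genes tested, within 22981 features (named genes plus unnamed probes). The study asked how PC4, a chromatin protein and transcriptional coactivator encoded by Sub1, acts in mouse B cells. RNA was labelled with Cy3 and hybridised to Agilent one-colour arrays, 3 arrays for each of 4 groups. Knockout splenic B cells, B1-8hi:Sub1fl/fl-Mb1-Cre, carried floxed Sub1 with Mb1-Cre, a recombinase driven from the Cd79a locus in B-lineage cells. Control splenic B cells, B1-8hi:Sub1fl/fl, carried the floxed gene without Cre, and all groups carried the B1-8hi heavy chain, a knock-in whose antibodies bind the hapten NP. Cells of each genotype were stimulated for 72 h or were resting. The stimulus held CD40 ligand at 0.2 ng/mL, NP-ficoll at 0.01 ng/mL, IL-5 at 1.5 ng/mL, IL-4 at 5 ng/mL and IL-2 at 100 U/mL. Resting samples were labelled as naive and as lacking differentiation stimuli. The ages of the mice and the number pooled per sample were not given in the sources used here. Sub1 loss, the presence of Cre and its insertion in Cd79a cannot be told apart in these groups.

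Secreted and membrane proteins, antibodies among them, enter the ER unfolded. There, Hsp70-type and Hsp90-type chaperones hold them, lectin chaperones retain those that carry sugar chains, and isomerases set their disulfide and proline bonds. Chains that stay misfolded are recognised, drawn back across the membrane, tagged with ubiquitin and destroyed, a route called ER-associated degradation. When unfolded protein builds up, the sensors IRE1 (Ern1), ATF6 (Atf6) and PERK (Eif2ak3) start the unfolded protein response, in which XBP1 and ATF6 switch on the genes of this machinery. In B cells the ER grows as the cells become antibody-secreting, and XBP1 is required for that growth.

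Levels below are log2 signal intensities relative to the array's 75th percentile, so 0 is that percentile. Changes are log2 differences with their SE, the first group named minus the second, and each fold change is 2 to the power of the size of that difference. A gene rose or fell where the limma adjusted p, over all 22981 features, was under 0.05. Since nothing in the labels ties the replicates to separate animals or cultures, these p-values reflect only how far the arrays of a group spread, and that spread may be technical. Between 24.3% and 76.8% of spots per array were well above background. In replicate order, the share was 64.5%, 42.6% and 76.8% on the knockout stimulated arrays. On the control stimulated arrays it was 36.6%, 24.3% and 60.1%, lower for each replicate number. On the resting arrays it was 40.5%, 48.1% and 76.6% in knockout and 41.8%, 52.9% and 64.1% in control cells. The part of this in the genotype differences was not tested. Precision is limited by the small number of arrays. Slide 1 carried the arrays of replicates 1 and 2, and slide 2 those of replicate 3. On slide 1 the knockout arrays lay in block row 2 and the control arrays in block row 1, so position and genotype cannot be told apart there, whereas all arrays of slide 2 lay in row 2. Control replicate 1 stood apart in its sex-linked transcripts. Xist was not well above background on its 2 arrays and read between 0.09 and 1.77 on the other 10, and Ddx3y and Eif2s3y were well above background only on its 2 arrays. By these transcripts its 2 arrays read as male and the other 10 as female. The Y-linked genes Kdm5d and Uty did not follow this split. Kdm5d was well above background only on knockout stimulated replicate 1 (-0.93). Uty was well above background on arrays of both genotypes, and not on control stimulated replicate 1. By Xist, Ddx3y and Eif2s3y, control replicate 1 was a separate biological sample, and sex varied within the control groups. Sub1 read 6.72, 6.87 and 6.92 in knockout and 8.19, 7.79 and 8.15 in control stimulated cells (-1.21, SE 0.19, limma adjusted p = 0.0114). In resting cells it read 5.37, 5.80 and 5.77 in knockout and 6.07, 6.02 and 6.0 in control cells (-0.38, limma adjusted p = 0.268), and whether its probe lies in the deleted part is not given in the sources used here. Cd79a was lower in knockout cells by -1.10 when stimulated (limma adjusted p = 0.0343) and by -1.54 when resting (limma adjusted p = 0.0948). The B cell marker Ms4a1 was well above background on all 12 arrays.

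In stimulated cells, 18 of the 36 genes fell in the knockout and 0 rose. Across all features, 2.26% fell and 1.21% rose. The fallen genes were the chaperones Hspa5, Hsp90b1, Sdf2l1 and Manf, the glycoprotein-folding genes Calr and Pdia3, the isomerase-group genes P4hb, Pdia6, Creld2, Ppib and Fkbp2, and the degradation genes Herpud1, Edem1, Sel1l, Derl1, Derl3, Selenok and Selenos. The median change over the 36 genes was -1.10, against -0.02 over all features. Many features are dim, whereas 30 of the 36 genes were well above background on all 12 arrays. Among the 10275 features kept by a filter on all 12 arrays, 1380 fell and 118 rose. The median over those features was -0.31, and the median of the members kept minus it was -0.85. Of the 36, 34 had a negative difference and 29 had all 3 knockout arrays below all 3 control arrays, an order seen in 14.1% of features. The other 2, Dnajb11 and Pdia5, had positive differences that did not pass the test. In resting cells 0 of the 36 rose and 0 fell by limma, and at an unadjusted p under 0.05 there were 2, both with positive differences. At that unadjusted threshold 8.31% of all features were higher and 11.4% lower. Across all features, 0.0087% rose and 0.00435% fell in resting knockout cells. In bulk RNA, fewer cells of a kind and less RNA per cell cannot be told apart.

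**Figure D1:**
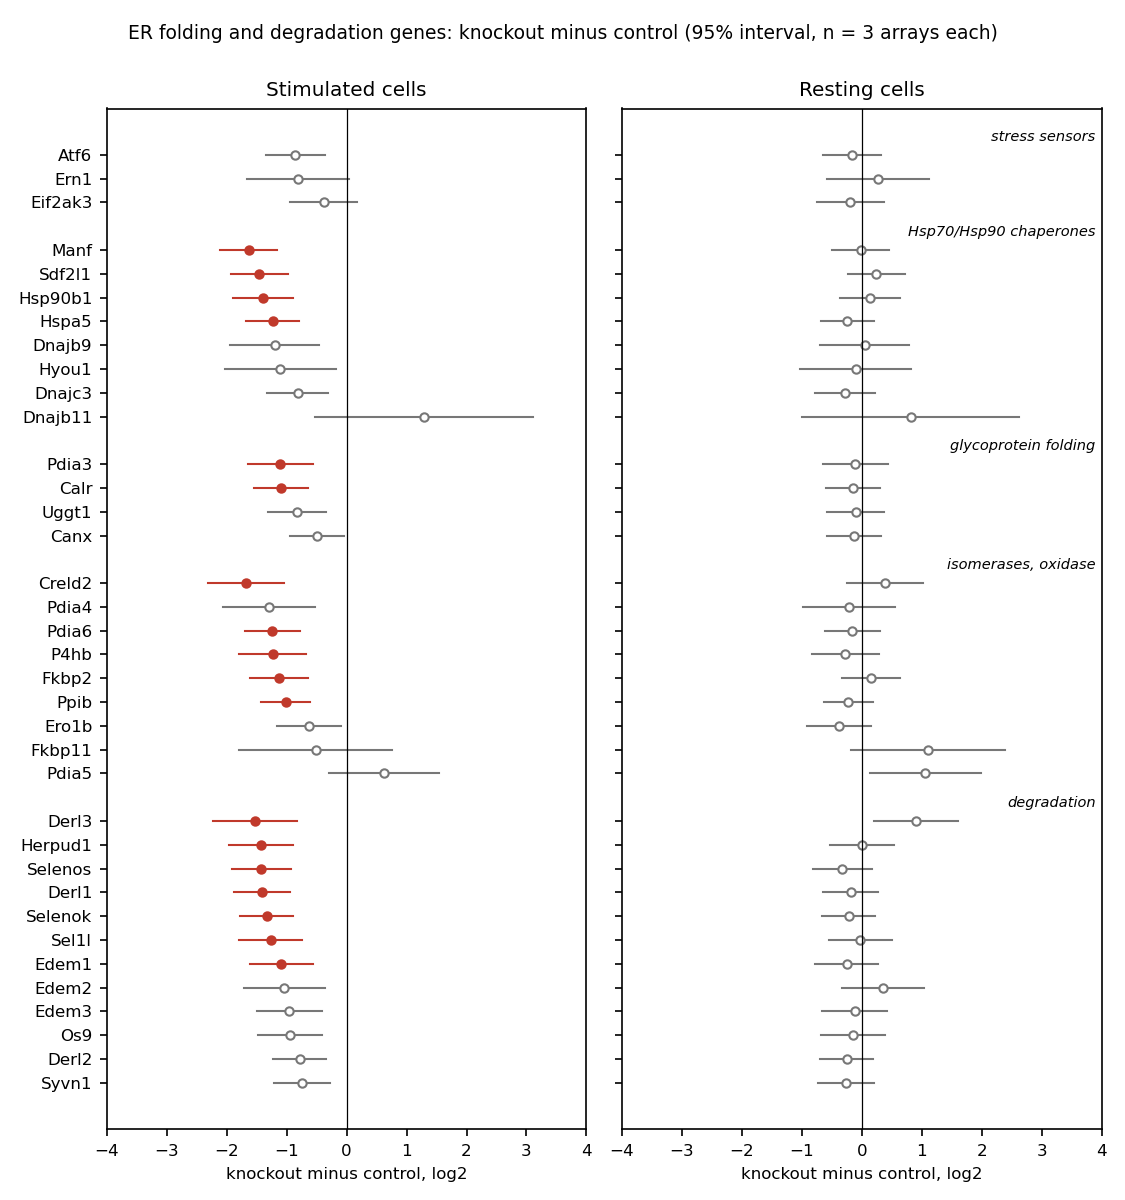
Knockout minus control difference (log2, x axis) of the 36 genes in stimulated cells (left) and resting cells (right), grouped by role, with points for the estimate, lines for the 95% interval and filled red points for an adjusted p under 0.05. In stimulated cells 18 points are filled and lie between -1.68 and -1.02, and in resting cells 0 are filled.

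The median level of the 36 genes was also taken on each array. It was 4.10, 3.85 and 3.91 on the knockout stimulated arrays and 5.49, 4.77 and 5.18 on the control stimulated arrays, 2.77, 3.21 and 2.87 on the knockout resting arrays and 2.95 to 3.28 on the control resting arrays. The stimulated groups did not overlap, the resting groups did, and control stimulated replicate 2 was the lowest of its group. Within slide 1 the median difference in stimulated cells was -1.06, and within slide 2, with 1 array a group, it was -1.20. The count of fallen genes changed when 1 array was left out: it was 6, 5 and 7 without knockout stimulated replicate 1, 2 or 3, 5 without control stimulated replicate 1 and 26 without control stimulated replicate 2, while the median stayed between -1.30 and -0.95. Without both arrays of control replicate 1 it was 1, with a median of -0.95, on slide 1 alone it was 0, and in a fit of the 4 groups with slide as a block it was 24. Scaling each array to the percentile of probes detected on all arrays turned the split of all features to 1902 higher and 374 lower. It had been 277 higher and 519 lower. The median of the 36 genes minus that of all features was -1.08 under either scaling. Each scaling shifts every spot of an array by the same amount, so that gap could not move between them. The gap was -0.88 with quantile normalization and -0.87 with normexp background correction. For the members that passed a filter on all 12 arrays it was -0.85.

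**Figure D2:**
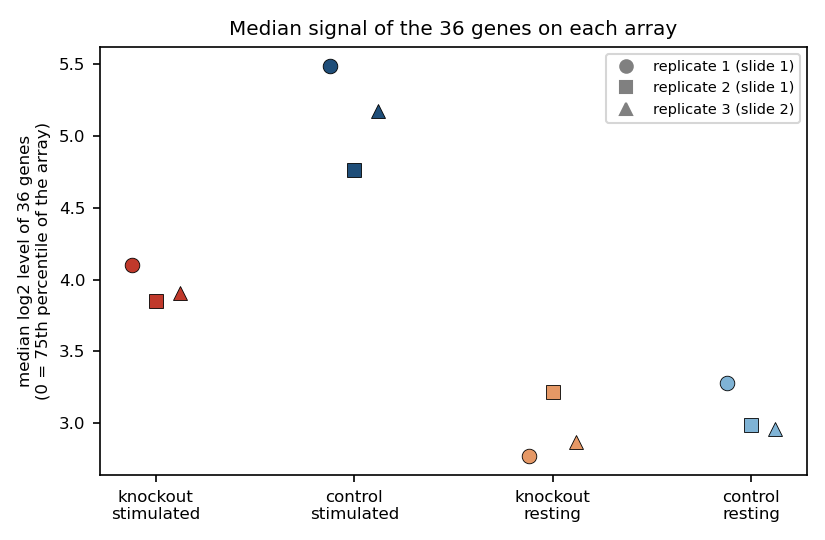
Median log2 level of the 36 genes (y axis, 0 is the array's 75th percentile) on each of the 12 arrays, by group, with the marker shape giving the replicate and its slide. The knockout stimulated arrays lie between 3.85 and 4.10, below the control stimulated arrays at 4.77 to 5.49, and the resting groups overlap.

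The promoters of the 36 genes were also searched for the letters of the ER stress response elements, to which ATF6 and XBP1 bind with NF-Y. A RefSeq window of 300 bases (250 before to 50 after the annotated transcript start, build GRCm38.p6) was given for 32 of the 36 genes, with none for Atf6, Derl1, Hyou1 and Manf. The letters of ERSE, CCAAT and CCACG with 9 bases between them, were searched on both strands and were in the windows of 10 of the 32 genes and of 0.137% of all genes with a window (0.119% of windows). ERSE-II, ATTGG and CCACG with any 1 base between them, was in the windows of 2 of the 32 and of 0.0444% of all genes. The letters TGACGTGG of the unfolded protein response element were in 0 of the 32 and in 0.714% of all genes, and CCAAT, which is also the start of ERSE and the reverse complement of the start of ERSE-II, was in 28 of the 32 and in 41.1% of all genes. A match is a description of letters, not of a bound site. The list was chosen by ER function and holds Hspa5, the gene in which the element was described. A share above that of all genes therefore comes with the list and bears on no change in the knockout. The 13 matches are shown together, ERSE first and ERSE-II last, so that their spacers can be compared. Capitals mark the fixed letters, and each is read 5′ to 3′ along the element.
Hspa5: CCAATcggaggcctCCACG
Hsp90b1, distal: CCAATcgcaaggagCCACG
Hsp90b1, proximal: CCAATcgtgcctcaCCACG
Dnajc3: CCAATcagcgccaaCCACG
Calr: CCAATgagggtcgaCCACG
Canx: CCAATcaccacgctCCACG
Pdia6: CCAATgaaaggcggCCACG
Creld2: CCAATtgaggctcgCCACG
Ero1b: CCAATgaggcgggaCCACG
Syvn1: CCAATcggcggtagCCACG
Derl3: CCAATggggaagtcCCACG
Dnajb11: ATTGGcCCACG
Herpud1: ATTGGgCCACG

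The ERSE of Hspa5 began 65 bases before the transcript start, the distal one of Hsp90b1 212 bases before it, and that of Syvn1 44 bases before it, the nearest of the ERSE matches. The ERSE-II of Herpud1 began 52 bases before the start, and that of Dnajb11 lay after it. Of the 13 matches, 5 lay on the strand opposite to the gene. The whole windows of 3 genes are printed with the matches in capitals and with the gene's strand read 5′ to 3′. Hspa5 is shown as the gene in which the element was described, Hsp90b1 for its pair of matches in opposite orientation, and Herpud1 for its ERSE-II match. Hspa5 is at chr2:34771840-34772139 (plus strand), Hsp90b1 at chr10:86705395-86705694 (minus strand) and Herpud1 at chr8:94386179-94386478 (plus strand).
Hspa5 window: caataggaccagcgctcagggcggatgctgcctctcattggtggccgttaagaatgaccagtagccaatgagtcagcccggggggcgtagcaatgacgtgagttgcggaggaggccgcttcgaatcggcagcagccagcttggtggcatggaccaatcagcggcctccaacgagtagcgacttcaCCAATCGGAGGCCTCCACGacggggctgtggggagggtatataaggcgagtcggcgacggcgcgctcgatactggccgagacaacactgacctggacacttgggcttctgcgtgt
Hsp90b1 window: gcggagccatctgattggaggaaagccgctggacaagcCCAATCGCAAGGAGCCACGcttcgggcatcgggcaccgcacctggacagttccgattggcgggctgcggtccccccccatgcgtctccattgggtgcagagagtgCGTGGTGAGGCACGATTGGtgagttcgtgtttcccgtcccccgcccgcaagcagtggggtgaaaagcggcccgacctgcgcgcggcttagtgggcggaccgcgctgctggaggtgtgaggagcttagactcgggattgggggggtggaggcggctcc
Herpud1 window: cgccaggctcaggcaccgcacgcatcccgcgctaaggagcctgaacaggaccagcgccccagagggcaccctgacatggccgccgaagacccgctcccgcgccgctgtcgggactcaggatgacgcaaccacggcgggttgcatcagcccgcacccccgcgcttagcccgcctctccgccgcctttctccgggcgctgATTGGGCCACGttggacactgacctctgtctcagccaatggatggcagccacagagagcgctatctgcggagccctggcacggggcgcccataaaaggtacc

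The changes of the genes with and without these letters were set side by side. In stimulated cells, 7 of the 12 genes with an ERSE or ERSE-II match fell in the knockout, with a median change of -1.16 (range -1.68 to 1.29). Of the 20 genes whose window held neither, 9 fell, with a median of -1.06 (range -1.46 to 0.62). The difference between these 2 sets was not tested.

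**Figure D3:**
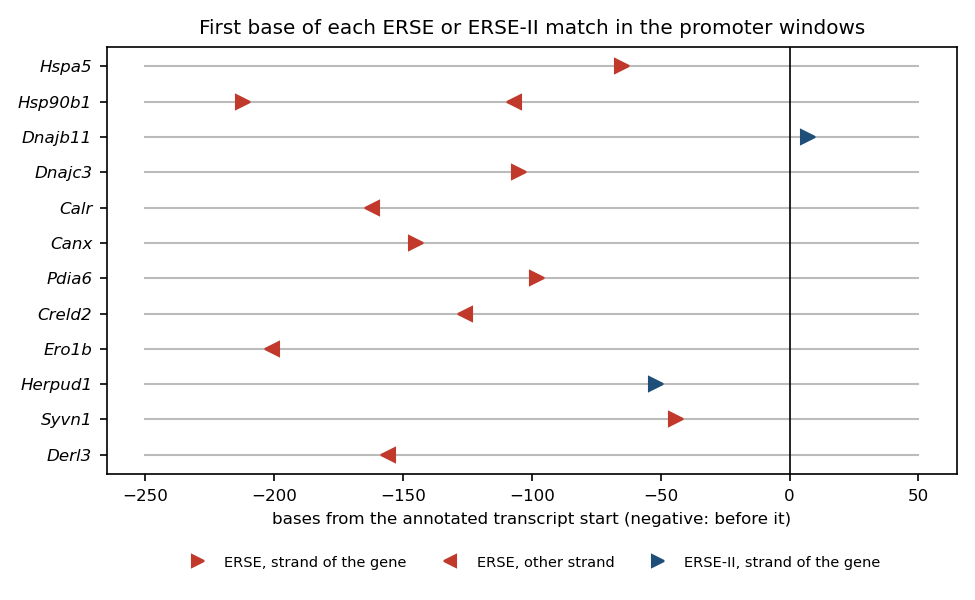
Position of the first base of each ERSE (red) or ERSE-II (blue) match in bases from the annotated transcript start (x axis) for the 12 genes that hold one, with the arrow giving the strand and the grey line the 300-base window. All but the Dnajb11 match lie before the start.

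None of the 3 stress sensors passed the test in stimulated knockout cells, and all 3 had negative differences. Ern1 encodes IRE1, the kinase and nuclease that splices Xbp1 mRNA. It read -0.60, -0.77 and -0.18 in knockout and 0.35, -0.39 and 0.93 in control stimulated cells, which overlapped (change -0.81, SE 0.38, limma adjusted p = 0.243). Atf6, whose protein is cut in the Golgi to release a transcription factor, read 0.11, -0.16 and 0.25 in knockout and 1.10, 0.81 and 0.84 in control stimulated cells. The groups did not overlap, and the change of -0.85 (SE 0.22) missed the threshold (limma adjusted p = 0.0634). With the replicate number as a block, a choice made from these same data, Atf6 passed the threshold (limma adjusted p = 0.0366). Calls made only with that block, here and below, are outside the main counts. Eif2ak3 encodes PERK, which slows translation by phosphorylating eIF2α. It read 1.54, 1.42 and 1.93 in knockout and 2.09, 1.71 and 2.23 in control stimulated cells, 1.92, 2.46 and 2.68 in knockout and 2.42, 2.43 and 2.78 in control resting cells, so that the genotypes overlapped in both states (stimulated change -0.38, SE 0.25, limma adjusted p = 0.382). In resting cells Ern1 read -0.70, -0.45 and -0.69 in knockout and -0.18, -1.54 and -0.95 in control cells, and Atf6 0.16, 0.18 and -0.30 in knockout and 0.48, 0.13 and -0.08 in control cells. Both overlapped.

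Of the 8 Hsp70 and Hsp90 chaperones and partners, 4 fell in stimulated knockout cells and 0 rose, with a median change of -1.22. Manf encodes a small ER protein that binds BiP, the ER Hsp70, and had the smallest adjusted p of the 36 genes. It read 4.51, 4.68 and 4.70 in knockout and 6.63, 6.05 and 6.10 in control stimulated cells. The highest knockout array was more than 1 log2 unit below the lowest control array, and the change was -1.63 (SE 0.21, 3.1-fold lower, limma adjusted p = 0.0057). In resting cells Manf read 2.70, 3.17 and 2.78 in knockout and 3.03, 2.95 and 2.73 in control cells, which overlapped (change -0.02, 95% interval -0.49 to 0.46). Sdf2l1 encodes a partner of ER J-proteins that is induced by ER stress. It read 3.80, 3.6 and 3.74 in knockout and 5.55, 4.80 and 5.15 in control stimulated cells, without overlap (change -1.46, SE 0.21, limma adjusted p = 0.00985). On the resting arrays it read 1.87, 2.28 and 2.03 in knockout and 1.93, 1.80 and 1.74 in control cells, which overlapped.

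Hspa5 encodes BiP itself, the chaperone that also holds the sensors inactive. It read 6.67, 6.93 and 6.70 in knockout and 8.23, 7.77 and 8.01 in control stimulated cells, again without overlap. The change was -1.24 (SE 0.20, 2.36-fold lower, limma adjusted p = 0.0129). On the resting arrays Hspa5 read 5.86, 6.41 and 6.10 in knockout and 6.44, 6.38 and 6.29 in control cells, which overlapped (change -0.25, 95% interval -0.69 to 0.20). Hsp90b1 encodes GRP94, the Hsp90 of the ER. Its levels were 7.09, 7.21 and 7.20 in knockout and 8.83, 8.24 and 8.62 in control stimulated cells, with all knockout arrays below all control arrays (change -1.39, SE 0.23, limma adjusted p = 0.0129). At rest they were 5.38, 5.99 and 5.39 in knockout and 5.65, 5.42 and 5.28 in control cells, which overlapped. Hsp90b1 and Hspa5 are the genes whose windows are printed above with ERSE matches.

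The other 4 chaperone genes did not pass the test. Dnajb9 (change -1.2, limma adjusted p = 0.0821) and Dnajc3 (-0.82, limma adjusted p = 0.0835) encode J-proteins that drive BiP, and Hyou1 (-1.11, limma adjusted p = 0.166) encodes a nucleotide exchange factor for it. All 3 had their knockout arrays below their control arrays. Only with the replicate number as a block did Dnajb9 and Dnajc3 pass the threshold (limma adjusted p = 0.0259 and 0.0442). Dnajb11, another J-protein gene, had the largest p of the group. It read -1.74, -0.79 and -0.74 in knockout and -3.85, -2.17 and -1.14 in control stimulated cells, -2.37, -1.82 and -1.25 in knockout and -4.30, -2.54 and -1.03 in control resting cells. The probe was dim, well above background on 6 of 12 arrays, and passed the filter only through the knockout stimulated group. The groups overlapped in both states, and control replicate 1 was the lowest on the arrays of either state (stimulated change 1.29, SE 0.82, limma adjusted p = 0.364).

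**Figure D4:**
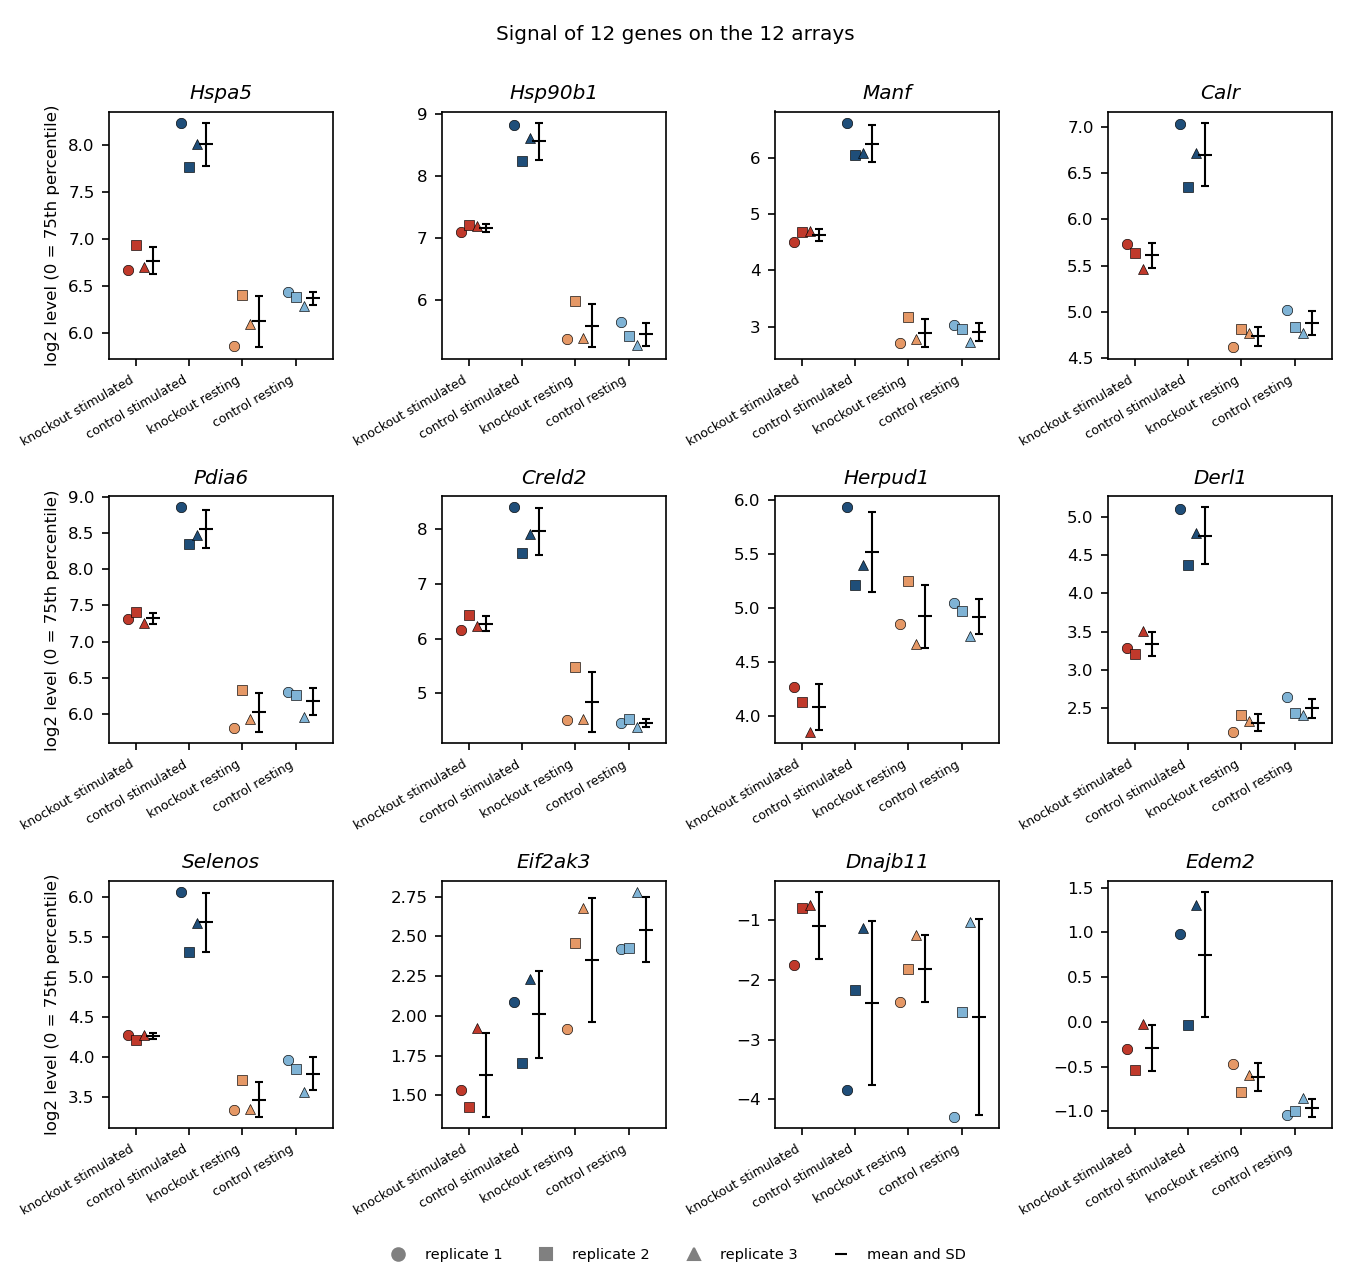
Log2 level (y axis, 0 is the array's 75th percentile) of 12 of the 36 genes on each array, by group and with a scale of its own for each gene, with marker shapes for the replicates and a black bar for the mean and SD of 3 arrays. In 9 of the panels the knockout stimulated arrays lie below all control stimulated arrays, while Eif2ak3, Dnajb11 and Edem2 overlap.

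Of the 4 glycoprotein-folding genes, 2 fell in stimulated knockout cells, and all 4 had their knockout arrays below their control arrays. Calr encodes calreticulin, the soluble lectin chaperone. It read 5.73, 5.63 and 5.47 in knockout and 7.03, 6.35 and 6.72 in control stimulated cells, and the change of -1.09 (SE 0.20, 2.13-fold lower) passed the test (limma adjusted p = 0.0197). At rest Calr read 4.62, 4.81 and 4.78 in knockout and 5.02, 4.84 and 4.77 in control cells, which overlapped. Pdia3 encodes ERp57, the disulfide isomerase that works with calreticulin and calnexin. It read 4.47, 4.52 and 4.09 in knockout and 5.75, 5.38 and 5.27 in control stimulated cells (change -1.11, SE 0.25, limma adjusted p = 0.0361). At rest it read 2.97, 3.7 and 3.11 in knockout and 3.34, 3.6 and 3.16 in control cells, with overlap. Uggt1 encodes the enzyme that adds glucose back to misfolded glycoproteins so that the lectins bind them again. Its levels were 4.16, 4.04 and 4.36 in knockout and 5.36, 4.73 and 4.95 in control stimulated cells, and the change of -0.83 (SE 0.22) missed the threshold (limma adjusted p = 0.0682) and passed it with the replicate number as a block (limma adjusted p = 0.0432). Canx encodes calnexin, the membrane-bound lectin chaperone, and had the smallest change of the group. It read 5.28, 4.99 and 4.88 in knockout and 5.86, 5.36 and 5.41 in control stimulated cells, where control replicate 2 lay only just above knockout replicate 1 (change -0.49, SE 0.20, limma adjusted p = 0.191). At rest Uggt1 read 3.55, 3.85 and 4.08 in knockout and 3.96, 3.80 and 4.03 in control cells, and Canx 4.13, 4.43 and 4.34 in knockout and 4.58, 4.41 and 4.32 in control cells. Both overlapped.

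Of the 9 disulfide and prolyl isomerase and oxidase genes, 5 fell in stimulated knockout cells and 0 rose, with a median change of -1.13. Creld2 encodes an ER-stress-induced protein with isomerase activity and had the largest decrease of the 36 genes. It read 6.16, 6.42 and 6.24 in knockout and 8.39, 7.56 and 7.92 in control stimulated cells, without overlap (change -1.68, SE 0.29, 3.21-fold lower, limma adjusted p = 0.0156). At rest it read 4.52, 5.47 and 4.53 in knockout and 4.46, 4.52 and 4.39 in control cells, where knockout replicate 2 was above all other resting arrays (change 0.38, 95% interval -0.26 to 1.02). Pdia6 encodes a disulfide isomerase that binds BiP. It read 7.31, 7.40 and 7.26 in knockout and 8.86, 8.35 and 8.48 in control stimulated cells, and 5.80, 6.33 and 5.92 in knockout and 6.30, 6.26 and 5.96 in control resting cells. Only the stimulated groups were separate (stimulated change -1.24, SE 0.21, limma adjusted p = 0.0144).

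Ppib and Fkbp2 encode prolyl isomerases, cyclophilin B and an FK506-binding protein. Ppib read 5.37, 5.38 and 5.30 in knockout and 6.62, 6.05 and 6.44 in control stimulated cells (change -1.02, SE 0.18, limma adjusted p = 0.0182). The 3 knockout arrays had an SD of 0.04 and lay below all control arrays. At rest Ppib read 4.47, 4.59 and 4.67 in knockout and 4.86, 4.78 and 4.76 in control cells, also without overlap, yet the change of -0.22 did not pass the test (limma adjusted p = 0.423). Fkbp2 read 4.57, 4.62 and 4.75 in knockout and 5.92, 5.37 and 6.03 in control stimulated cells, without overlap (change -1.13, SE 0.22, limma adjusted p = 0.0222). At rest it read 3.31, 3.81 and 3.42 in knockout and 3.44, 3.34 and 3.29 in control cells, which overlapped. The fifth gene that fell was P4hb, the classical protein disulfide isomerase, at 4.02 ± 0.27 in knockout and 5.26 ± 0.42 in control stimulated cells (SD, n = 3 arrays each, limma adjusted p = 0.0274).

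Pdia4, another disulfide isomerase gene, averaged 3.75 ± 0.52 in knockout and 5.05 ± 0.58 in control stimulated cells (SD, n = 3 arrays each). Its change of -1.30 missed the threshold (limma adjusted p = 0.072) and passed it with the replicate number as a block (limma adjusted p = 0.0153). Ero1b, the oxidase that feeds the isomerases, differed by -0.63 (limma adjusted p = 0.171), with overlap. Pdia5 went the other way, at -1.43 ± 0.71 in knockout and -2.05 ± 0.65 in control stimulated cells (SD, n = 3 arrays each), a difference of 0.62 that did not pass the test (limma adjusted p = 0.388). Fkbp11, a prolyl isomerase gene expressed in secretory cells, had the largest p of the group. It read -1.29, -1.75 and -0.59 in knockout and -1.65, -0.90 and 0.47 in control stimulated cells, -0.31, -0.60 and -1.24 in knockout and -2.83, -1.21 and -1.43 in control resting cells. It was well above background on 8 of 12 arrays and passed the filter only through the knockout resting group, and its groups overlapped in both states (stimulated change -0.52, SE 0.58, limma adjusted p = 0.602).

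Of the 12 degradation genes, 7 fell in stimulated knockout cells and 0 rose. All 12 differences were negative, with a median of -1.18, and 11 genes had all knockout arrays below all control arrays. Derl1 encodes a derlin, a membrane protein of the channel through which misfolded chains leave the ER. It read 3.29, 3.21 and 3.51 in knockout and 5.10, 4.37 and 4.78 in control stimulated cells (change -1.42, SE 0.21, 2.67-fold lower, limma adjusted p = 0.0103). At rest it read 2.19, 2.41 and 2.33 in knockout and 2.64, 2.44 and 2.42 in control cells, where the knockout arrays also lay below the control arrays, by a change of -0.19 that did not pass the test (limma adjusted p = 0.547). Selenok and Selenos encode selenoproteins of the ER membrane that join derlins to the ATPase p97, which pulls chains out. Selenok read 5.03, 4.89 and 4.88 in knockout and 6.52, 5.92 and 6.36 in control stimulated cells (change -1.33, SE 0.20, limma adjusted p = 0.0106). Selenos read 4.28, 4.22 and 4.28 in knockout and 6.06, 5.32 and 5.68 in control stimulated cells (change -1.42, SE 0.22, limma adjusted p = 0.0114). The knockout arrays of both lay below every control array. At rest Selenok read 4.44, 4.71 and 4.48 in knockout and 4.95, 4.74 and 4.60 in control cells, and Selenos 3.34, 3.72 and 3.35 in knockout and 3.97, 3.85 and 3.57 in control cells, which overlapped.

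Herpud1 encodes a ubiquitin-like membrane protein that assembles the degradation complex, and it is the gene printed above with an ERSE-II match. It read 4.27, 4.13 and 3.85 in knockout and 5.93, 5.21 and 5.40 in control stimulated cells (change -1.43, SE 0.24, 2.7-fold lower, limma adjusted p = 0.014). At rest it read 4.85, 5.24 and 4.67 in knockout and 5.04, 4.97 and 4.74 in control cells, which overlapped. Its knockout stimulated arrays were thus the lowest of the 12. Edem2 encodes an enzyme of the mannose trimming that marks glycoproteins for disposal and had the largest p of the group. It read -0.30, -0.54 and -0.02 in knockout and 0.98, -0.03 and 1.31 in control stimulated cells, where knockout replicate 3 lay just above control replicate 2 (change -1.04, SE 0.31, limma adjusted p = 0.0973, and 0.0406 with the replicate number as a block). At rest it read -0.47, -0.78 and -0.60 in knockout and -1.04, -0.99 and -0.85 in control cells, all knockout arrays being above all control arrays (change 0.35, limma adjusted p = 0.459).

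Among the other degradation genes, Edem1 (-1.09, limma adjusted p = 0.0344), Sel1l, the adaptor of the ubiquitin ligase (-1.27, limma adjusted p = 0.0203), and the derlin gene Derl3 (-1.53, limma adjusted p = 0.0289) fell. Syvn1, the ligase HRD1 that Sel1l holds, read 6.19 ± 0.12 in knockout and 6.94 ± 0.27 in control stimulated cells (SD, n = 3 arrays each), and its change of -0.75 did not pass the test (limma adjusted p = 0.0844). Derl2 (-0.79, limma adjusted p = 0.0583), Os9, a lectin that delivers glycoproteins to the ligase (-0.95, limma adjusted p = 0.0608), and Edem3 (-0.95, limma adjusted p = 0.061) also missed the threshold. With the replicate number as a block, Derl2 and Os9 passed it (limma adjusted p = 0.0467 and 0.0287).

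In resting cells, the difference between genotypes over the 36 genes had a median of -0.13, against -0.21 over all features. The knockout arrays were all below the control arrays for 3 genes (Ppib, Derl1 and Derl2), an order seen in 26.9% of features, and all above them for 3 genes (Pdia5, Edem2 and Derl3), an order seen in 9.8% of features. The 2 genes with an unadjusted p under 0.05 were Derl3, at 2.74 ± 0.56 in knockout and 1.84 ± 0.18 in control cells (change 0.91, limma adjusted p = 0.223), and Pdia5, at -0.39 ± 0.48 in knockout and -1.44 ± 0.22 in control cells (change 1.06, limma adjusted p = 0.233, SD and n = 3 arrays each). The 95% intervals of all 36 differences lay between -1.03 and 2.63. The sign of the resting median depended on the scaling of the arrays, at 0.17 with quantile normalization and 0.23 when the percentile came from the probes detected on every array, while the median of all features moved with it, to -0.05 and 0.15.

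On stimulation, 14 of the 36 genes rose in knockout cells and 1, Herpud1, fell there, with a median change of 0.61 against 0.10 over all features. In control cells 28 rose and 0 fell, with a median of 1.53 against 0.04. Across all features, 10.9% rose and 5.2% fell in knockout cells, and 14.7% rose and 13.1% fell in control cells. The largest changes in knockout cells were those of Manf (1.74, SE 0.21, limma adjusted p = 0.000415), Sdf2l1 (1.65, SE 0.21, limma adjusted p = 0.00057) and Hsp90b1 (1.58, SE 0.23, limma adjusted p = 0.00105). In control cells they were those of Derl3 (3.79, SE 0.32, 13.8-fold, limma adjusted p = 1.97e-05), Creld2 (3.50, SE 0.29, 11.3-fold, limma adjusted p = 1.89e-05) and Manf (3.36, SE 0.21, 10.3-fold, limma adjusted p = 6.39e-06). The 2 comparisons use separate arrays. Without both arrays of control replicate 1, 26 genes rose in control cells with a median of 1.49, and the resting genotype difference had 0 calls and a median of -0.07.

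By role, the chaperones rose for 3 of 8 genes in knockout and 6 of 8 in control cells, the glycoprotein-folding genes for 3 of 4 in knockout and 4 of 4 in control cells, and the isomerase group for 5 of 9 in knockout and 6 of 9 in control cells. Degradation genes rose for 3 of 12 in knockout cells (Derl1, Derl3 and Selenos) and for 10 of 12 in control cells. The sensors rose for 0 of 3 in knockout cells and 2 of 3 in control cells, Ern1 (1.19, limma adjusted p = 0.0406) and Atf6 (0.74, limma adjusted p = 0.0274). Hspa5 changed by 0.64 in knockout cells, which missed the threshold (limma adjusted p = 0.0526), and rose by 1.63 in control cells (limma adjusted p = 0.00017). Herpud1 fell by 0.84 in knockout cells (SE 0.24, limma adjusted p = 0.0379), with all stimulated arrays below all resting ones. In control cells all of its stimulated arrays lay above the resting ones, and the change of 0.60 did not pass the test (limma adjusted p = 0.096). With the replicate number as a block in the fit of all 12 arrays, Dnajb9 and Syvn1 also passed the threshold in control cells (limma adjusted p = 0.0327 and 0.0489).

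**Figure D5:**
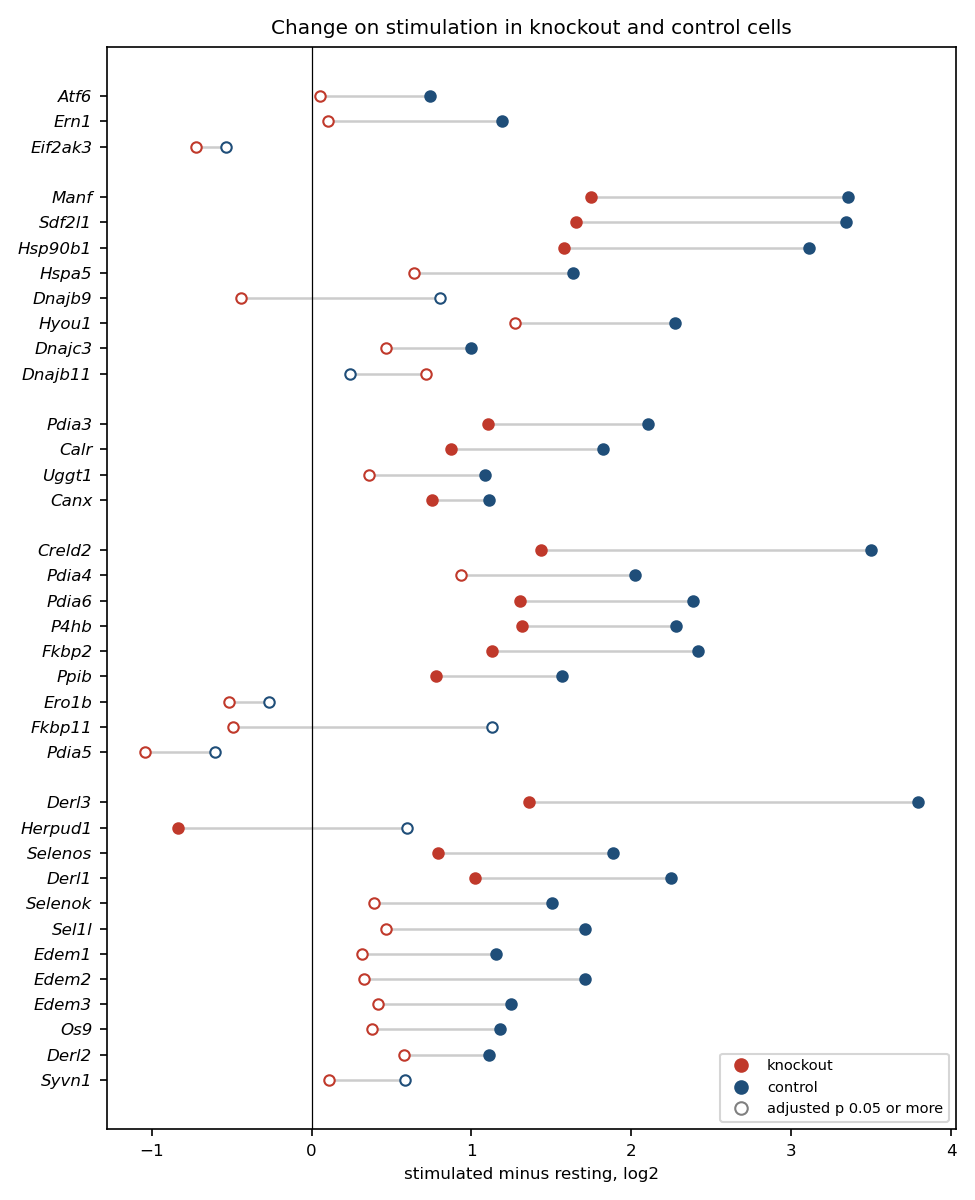
Stimulated minus resting difference (log2, x axis) of the 36 genes in knockout (red) and control cells (blue), joined by a grey line, with filled points for an adjusted p under 0.05, in the role order sensors, chaperones, glycoprotein folding, isomerases and degradation. The knockout point lies to the left of the control point for every gene except Dnajb11.

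The difference between the 2 stimulation responses was tested as an interaction, and 0 of the 36 genes passed by limma. The interaction was higher for 0.0522% and lower for 0.0914% of all features. At an unadjusted p under 0.05 there were 25 of the 36, all with a smaller response in knockout cells, where 3.96% of all features were lower and 6.68% higher. In sign, 35 of the 36 differences were negative, with a median of -1.0 against 0.08 over all features. The smallest adjusted p-values were those of Sdf2l1 (difference -1.69, SE 0.30, limma adjusted p = 0.0669), Derl3 (-2.43, SE 0.45, limma adjusted p = 0.0674), Manf (-1.61, SE 0.30, limma adjusted p = 0.0713) and Creld2 (-2.06, SE 0.41, limma adjusted p = 0.0851). Herpud1, with opposite signs in the 2 genotypes, differed by -1.43 (SE 0.34, limma adjusted p = 0.14). Other settings called between 0 and 11 of the 36 in this comparison, so a reduced response was not established gene by gene at this number of arrays.

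The regulators of the unfolded protein response moved in part with the 36 genes. Of 13 regulators tested, 5 fell in stimulated knockout cells and 0 rose, with a median change of -0.62. They were Trib3, a pseudokinase gene induced in stress (-1.64, SE 0.30, limma adjusted p = 0.0192), Atf4, the transcription factor downstream of PERK (-0.96, SE 0.18, limma adjusted p = 0.0209), Wfs1, an ER membrane protein gene (-1.15, SE 0.24, limma adjusted p = 0.0317), Creb3l2 (-1.40, limma adjusted p = 0.0496) and Xbp1 (-0.93, limma adjusted p = 0.0499). Xbp1 read 7.34, 7.34 and 7.59 in knockout and 8.42, 8.08 and 8.56 in control stimulated cells, which did not overlap, and 5.07, 5.83 and 5.40 in knockout and 5.37, 5.39 and 5.31 in control resting cells, which did. Whether the probe tells spliced from unspliced Xbp1 is not given in the sources used here. On stimulation, 4 regulators rose and 1 fell in knockout cells, and 5 rose and 1 fell in control cells. Xbp1 rose by 1.99 in knockout and 3.0 in control cells (limma adjusted p = 0.000229 and 1.16e-05), and Ppp1r15a, which restores translation after PERK acts, fell in both (-1.80 in knockout and -1.71 in control cells).

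Of 19 further folding enzymes tested out of 21 listed, 6 fell in stimulated knockout cells and 0 rose, with a median change of -0.77. Those with the smallest p were Mogs, the glucosidase that starts glycan trimming (-1.29, limma adjusted p = 0.0114), Txndc11 (-1.72, limma adjusted p = 0.0168) and Cnpy2 (-1.09, limma adjusted p = 0.0192). On stimulation 4 of the 19 rose in knockout cells, and 11 rose and 1 fell in control cells, led in both by Prdx4, an ER peroxidase gene (1.51 in knockout and 2.90 in control cells), and Cnpy2. Of 19 further degradation genes tested out of 21 listed, 2 fell in stimulated knockout cells and 0 rose, Man1b1, a mannosidase gene (-1.38, limma adjusted p = 0.0197), and Ube2j1, a ubiquitin-conjugating enzyme gene of the ER (-1.28, limma adjusted p = 0.0228). Their median change was -0.60. On stimulation 4 of these 19 rose in knockout cells, and 10 rose and 2 fell in control cells. In resting cells 0 of the 13 regulators, 0 of the 19 folding enzymes and 0 of the 19 degradation genes passed the limma test.

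Genes of the antibody-secreting state fell beside the ER genes. Of 6, 5 fell in stimulated knockout cells: Irf4 and Prdm1, transcription factors of plasma cell formation, Xbp1, Jchain, the joining chain of polymeric antibody, and Tnfrsf17, the survival receptor BCMA. Irf4 read 4.36, 4.08 and 4.30 in knockout and 6.07, 5.24 and 5.77 in control stimulated cells (change -1.44, SE 0.22, limma adjusted p = 0.0114). Prdm1 read 2.25, 2.33 and 2.36 in knockout and 3.98, 3.54 and 3.67 in control stimulated cells (change -1.42, SE 0.26, limma adjusted p = 0.0197). Neither overlapped. Jchain read 4.09, 3.51 and 5.23 in knockout and 6.49, 6.22 and 7.46 in control stimulated cells (change -2.45, SE 0.44, limma adjusted p = 0.0179). Tnfrsf17 read -2.19, -2.81 and 0.06 in knockout and 1.75, 1.2 and 2.95 in control stimulated cells, without overlap (change -3.61, SE 0.66, limma adjusted p = 0.0192). In resting cells Jchain read 6.87, 7.24 and 6.84 in knockout and 5.58, 5.20 and 5.85 in control cells, with all knockout arrays above all control arrays, and the change of 1.44 did not pass the test (limma adjusted p = 0.206). Sdc1, the plasma cell surface marker CD138, read -0.74, -0.73 and 0.31 in knockout and 1.50, 0.17 and 1.92 in control stimulated cells, which overlapped (change -1.58, limma adjusted p = 0.0954). The 8 plasma cell markers were these 6 genes with Mzb1 and Ell2 added, so the counts overlap, and Xbp1 was also among the regulators above. Of the 8, 7 fell. The 8 summed on the linear scale (multiples of the 75th percentile) to 297 to 369 on the knockout and 622 to 967 on the control stimulated arrays. On the resting arrays the order was the opposite, with sums of 207 to 277 in knockout and 144 to 166 in control cells. By limma, 0 of the 8 rose and 0 fell in resting knockout cells. The part of such a difference in cell state in the ER gene result was not tested.

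Markers of other cells were read beside the ER genes. Across all features, 1.21% rose and 2.26% fell in stimulated knockout cells. Of 11 macrophage and myeloid markers tested out of 13, 6 rose in stimulated knockout cells and 0 fell, and their levels summed to 38.3 to 46.1 on the knockout and 13.7 to 28.8 on the control stimulated arrays. C1qa and Cd14 were not well above background on any control stimulated array, and Fcgr1 did not pass the filter on dim probes. Of 7 NK cell markers tested out of 9, 4 rose and 0 fell, with sums of 219 to 426 on the knockout and 35.2 to 37.2 on the control stimulated arrays, and Klrk1 and Klrd1 did not pass the filter. Of 8 T cell markers tested out of 11, 1 rose (sums 80.2 to 92.9 on the knockout and 55.4 to 68.7 on the control stimulated arrays), and Cd8b1 and Il7r did not pass the filter. Of 5 erythroid markers tested out of 7, 2 rose (sums 10.1 to 50.2 on the knockout and 0.893 to 2.56 on the control stimulated arrays). Of 6 neutrophil markers tested out of 7, 0 passed the test (sums 2.83 to 14.8 on the knockout and 1.11 to 4.49 on the control stimulated arrays). The 8 B cell markers, of which Cd79a alone fell, summed to 528 to 644 on the knockout and 487 to 686 on the control stimulated arrays. The 36 ER genes summed to 964 to 1001 on the knockout and 1869 to 2853 on the control stimulated arrays. The same markers were read for stimulation. There 10.9% of all features rose and 5.2% fell in knockout cells, and 14.7% rose and 13.1% fell in control cells. Of the 11 myeloid markers, 8 fell in knockout and 7 in control cells, with sums of 94.3 to 127 on the knockout resting and 51.5 to 65.0 on the control resting arrays. Of the 5 erythroid markers, 5 fell in knockout and 3 in control cells, with resting sums of 214 to 653 in knockout and 17.1 to 278 in control cells. Of the 6 neutrophil markers, 0 passed the test in knockout and 2 fell in control cells (resting sums 14.2 to 72.3 and 4.71 to 51.7 on the knockout and control arrays). NK cell markers rose for 4 of 7 in knockout and 2 of 7 in control cells (resting sums 7.59 to 11 and 5.56 to 9.04 on the knockout and control arrays). T cell markers rose for 2 and fell for 1 of 8 in knockout cells, and rose for 2 and fell for 2 in control cells (resting sums 13.2 to 24.5 and 14.1 to 17.7 on the knockout and control arrays). Of the 8 B cell markers, 2 fell in knockout and 7 in control cells, with resting sums of 675 to 793 in knockout and 1005 to 1172 in control cells. Whether these transcripts came from other cells or from the B cells themselves was not tested, nor was their part in the ER gene results.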

How the data were processed

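The deposited scanner files hold 1 array each with a processed signal intensity per spot, background-corrected by Agilent Feature Extraction 10.7.3.1, per the file headers (the submitters' processing notes name 9.1). No spot was saturated, and the deposited value table holds the same intensities rounded. Here each spot's log2 intensity was set relative to the 75th percentile of the non-control spots of its array. Outlier spots were left out and spots of a probe averaged. Of 55681 probes, 26413 were named through their accessions in RefSeq's table for GRCm38.p6. Probes were kept where 1 group or more had all 3 of its arrays well above background, and each gene was read from its brightest probe. All 12 arrays were fitted together with 1 mean per group (limma 3.58.1 in R 4.3.3), with Benjamini-Hochberg adjustment across the features. The step was checked on simulated arrays with independent noise, so the check does not cover arrays that deviate together.

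The members and lists were chosen with earlier results of these data known. Values on every array are given for the sensors and, per role, for the 4 genes with the smallest p in stimulated cells and the 1 with the largest. Genes of other lists are named for the smallest p. Same-numbered arrays deviated together in the stimulated genotype comparison (correlations 0.35, 0.33 and 0.48) and in the control stimulation comparison (0.42, 0.43 and 0.51). The replicate number was therefore tried as a block there. The labels name no pairing, so this choice rests on these same data. It was not made for the resting comparison (-0.12, 0.20 and 0.39) or the knockout stimulation comparison (0.0032, 0.15 and 0.39). Replicate 3 was also slide 2, so pairing and slide cannot be told apart for it. Calls made only with the block are not part of the main counts. The alternatives covered blocks, scaling, background, filters, probes per gene, moderation and left-out arrays.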

Additional observations from a re-analysis of the deposited data

Results flagged for a closer look

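The joining chain gene Jchain, not one of the 36, was the gene among the lists described here whose response to stimulation differed between the genotypes by test. The difference was -3.89 (SE 0.62, limma adjusted p = 0.0497), and it was -4.22 on slide 1 and -3.22 on slide 2. The difference stayed between -4.36 and -3.50 under 25 other settings and passed the test in 12 of them, with adjusted p-values from 0.00215 to 0.297. The call was lost with no filter (limma adjusted p = 0.297), on slide 1 alone (0.142), without both arrays of control replicate 1 (0.282), and in 10 of the 12 fits that left out 1 array, the exceptions being those without knockout stimulated replicate 3 and without control stimulated replicate 2. Jchain fell by 2.71 on stimulation in knockout cells (limma adjusted p = 0.00201), with all 3 stimulated arrays below all 3 resting ones, and changed by 1.18 in control cells (limma adjusted p = 0.0708), with all 3 stimulated arrays above the resting ones.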

How the results depend on the processing

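The results were recomputed under 26 other settings, and no called gene among the 36 changed sign in any of them. For knockout against control stimulated cells, the count of genes that fell (18) was 0 with only the groups compared in the fit, 8 with quantile normalization, 0 with no filter on dim probes, 0 on slide 1 alone, 1 without both arrays of control replicate 1, and 5 to 26 with 1 array left out. Of all features, 0 fell with only the groups compared, 24 of 49286 with no filter, 5 on slide 1 and 20 without both arrays of control replicate 1, so few calls of any kind were made under these settings. None of the 18 kept its call in all settings, and Manf kept it in 23. The median change (-1.10) was -0.78 with quantile normalization, -1.66 with median scaling, -0.70 with the percentile over probes detected on all arrays, and -1.30 to -0.95 with 1 array left out. Beside these, the median of all features was 0.09, -0.58 and 0.38 under the same scalings. The feature split, 277 higher and 519 lower, became 313 and 235 with quantile normalization, 81 and 597 with median scaling, 1902 and 374 with the detected percentile, and 825 and 1040 with the replicate block. For resting cells, the median change (-0.13) was 0.17 with quantile normalization, 0.23 with the detected percentile and -0.73 with median scaling, and -0.18 to -0.02 with 1 array left out, and the count stayed 0. For stimulation in knockout cells, the count (15) was 5 with median scaling, 6 with no filter, 3 on slide 1 and 10 to 18 with 1 array left out, and the median (0.61) was 0.36 with quantile normalization, 0.27 with the detected percentile and 0.45 to 0.68 with 1 array left out. The split of all features there, 2498 higher and 1194 lower, became 2353 and 2203, and 1787 and 3165, under those scalings. For stimulation in control cells, the count (28) was 26 to 29 with 1 array left out and 19 of the 28 kept their call in all settings, and the median (1.53) was 1.10 with quantile normalization, 1.15 with the detected percentile and 1.44 to 1.70 with 1 array left out. The split there, 3386 higher and 3011 lower, became 2755 and 3845, and 2492 and 6006. For the interaction, the count (0) was 1 with quantile normalization, 11 with the detected percentile, 4 with normexp background correction, 11 with the filter on all 12 arrays, 11 with trend and robust moderation, 5 without control stimulated replicate 2 (0 to 5 over all left-out arrays), and the median was -1.15 to -0.87 with 1 array left out. The replicate block, with same-numbered arrays treated as paired, gave 26 and 30 called genes in the stimulated genotype and control stimulation comparisons. In knockout stimulation, covered by the same fit, the replicate block gave 18. It ended no call. The causes of these changes were not tested. Signal over background limits Dnajb11, Fkbp11, Hyou1, Pdia5, Ern1 and Edem2, which were dim on some arrays.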

Other observations

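For 6 of the 36 genes the array held further probes that passed the filter, and the probes of a gene did not always give the same change. In knockout against control stimulated cells the dimmer probe changed by -0.79 for Derl1 (-1.42 for the brightest probe), -0.68 for Pdia6 (-1.24), -0.85 for Selenok (-1.33), -0.55 for Uggt1 (-0.83) and -0.88 for Dnajb9 (-1.2). The 2 dimmer Derl2 probes changed by -0.78 and -0.03 (-0.79 for the brightest). None of these dimmer probes passed the limma test there, including those of Derl1, Pdia6 and Selenok, which fell by their brightest probe. On stimulation of control cells, the third Derl2 probe changed by -0.60 (limma adjusted p = 0.143), while the other Derl2 probes rose by 1.11 and 1.2. The dimmer Dnajb9 probe rose by 1.56 (limma adjusted p = 0.0106), while its brightest probe changed by 0.81 (limma adjusted p = 0.102).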
